A study of Schmidtea polychroa with 24 samples.

Results

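Cocoons of the freshwater planarian Schmidtea polychroa taken 32 h after deposition were compared with cocoons taken 4 h after deposition. The comparison used 6 of the 24 libraries of the series, chosen by the time in the labels: 3 libraries of 32 h and 3 libraries of 4 h. Both groups came from a sexual population kept in the laboratory and were held at 20 °C after laying, with no treatment named beyond cleaning of the capsules. Each library is a biological replicate that pools 4 whole cocoons, sequenced in pairs of 100 bp reads from stranded polyA libraries. The remaining 18 libraries, 3 at each of 24, 48, 72, 96, 120 and 168 h, were used to follow the genes that changed.

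A planarian cocoon is a capsule in which a few fertilised eggs lie among very many yolk cells supplied by the mother. The early embryo cleaves among these cells without a closed epithelium, some yolk cells fuse around it, and the embryo later builds a temporary pharynx with which it swallows the rest of the yolk. In animals generally, the first hours of development run on RNA laid down by the mother, which is later cleared while the embryo starts its own transcription. RNA of a whole cocoon is therefore a mixture of embryo and yolk cells, and fewer cells of a type and less RNA per cell cannot be told apart in these libraries. The assembler's gene IDs carry no names, so the labelled tissue could not be checked against markers and genes are described by their level and course. A gene here is the sum of the isoforms that the assembler grouped.

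The 32 h libraries held 3475562, 2379494 and 2202637 estimated counts, and the 4 h libraries held 5080637, 5204768 and 3983288. Of 22365 genes listed, 20487 had a count in these 6 libraries and 15587 had enough counts over the series to be tested. A count was found for 14939, 9299 and 12472 genes at 32 h, against 13915, 16219 and 15500 at 4 h. With all 6 libraries thinned to the shallowest, the 32 h libraries averaged 12029 ± 2554 genes and the 4 h libraries 14189.9 ± 1398 (SD, n = 3 each). The test did not tell that difference from the spread between libraries (two-sided exact permutation test, p = 0.2, where 0.1 is the smallest value that 3 against 3 libraries allow). The lowest thinned value was 9283 in 32h replicate 2. Replicates 1 and 3 of 32 h had 14333 and 12472, and the 4 h libraries 12696 to 15465.5.

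Replicate 2 of 32 h stood apart from the other libraries of its time. It correlated with 32h replicates 1 and 3 at a Spearman's rho of 0.839 and 0.802, across genes, while replicates 1 and 3 correlated at 0.912. Pairs of 4 h libraries correlated at 0.853 to 0.926. Pairs of a 32 h and a 4 h library correlated at 0.696 to 0.836, a range that overlaps the values of 32h replicate 2 within its own time. Lower values between replicates occurred elsewhere in the series, such as 0.638 for 48h replicates 1 and 2. The library 32h replicate 2 had no count for 218 genes that reached at least 10 CPM (counts per 1000000 counts) in both other 32 h libraries. The same search found 0 such genes for 32h replicate 1 and 2 for 32h replicate 3. Among the 4 h libraries it found 42 for replicate 1, 1 for replicate 2 and 0 for replicate 3. Results that rest on 32h replicate 2 are therefore given with and without it.

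A pair of genes took up a much larger part of the counts at 32 h than at 4 h. The gene with the most counts held 27.8%, 43.1% and 36.1% of the counts at 32 h, against 15.6%, 13.7% and 15.7% at 4 h. The gene with the second most counts held 6.73%, 6.42% and 11.3% at 32 h, against 0.114%, 0.104% and 0.0978% at 4 h. For both genes every 32 h library lay above every 4 h library. These shares are not adjusted for gene length, and both genes, picked for their abundance in these 6 libraries, are left unnamed. Their joint share averaged 43.8% ± 8.11 in 32 h libraries and 15.1% ± 1.12 in 4 h libraries (SD, n = 3 each), a difference of 28.7 percentage points (two-sided exact permutation test, p = 0.1, the smallest possible).

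**Figure D1:**
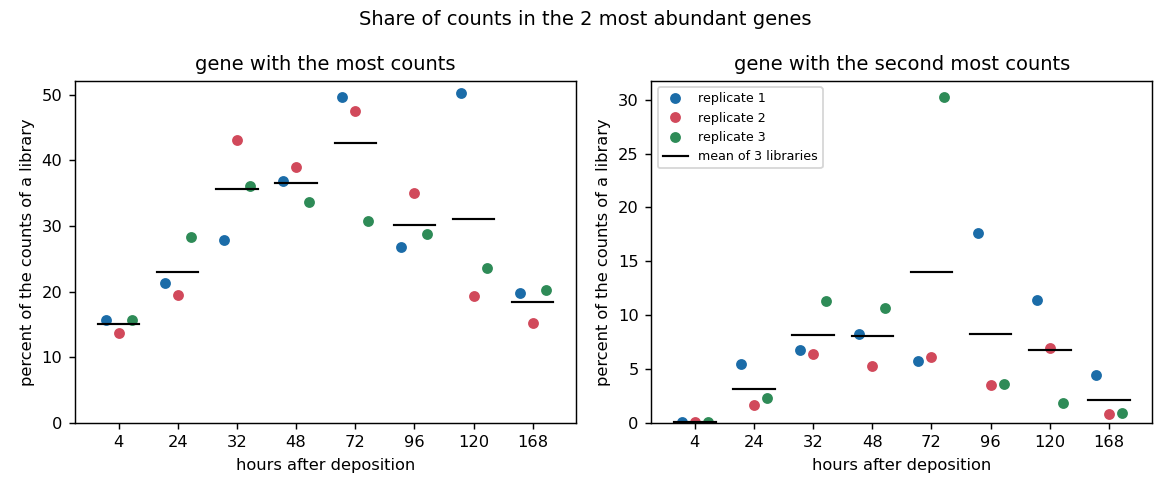
Percent of the counts of each library held by the gene with the most counts (left) and by the gene with the second most counts (right), against hours after deposition; points are libraries and bars are the mean of 3 libraries. At 32 h the first gene lies between 27.8% and 43.1%, above its 13.7% to 15.7% at 4 h, and the second lies between 6.42% and 11.3%, against at most 0.114% at 4 h.

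The plot of shares by time shows the further course of both genes. Jointly, the libraries of 24 h gave them 26.2% ± 4.72, those of 48 h 44.5% ± 0.449, those of 72 h 56.7% ± 3.84, those of 96 h 38.4% ± 6.01, those of 120 h 37.8% ± 20.7 and those of 168 h 20.5% ± 4.11 (mean ± SD, n = 3 each). The wide spread at 120 h came with replicate 1, where the pair held 61.7%, while replicates 2 and 3 gave it 26.2% and 25.4%. The second gene was called higher at 32 h than at 4 h, with a log2 fold change of 6.74 (SE 1.34, adjusted p = 0.0075 in edgeR's quasi-likelihood test). That call held in 5 of the 6 fits that each leave out one library of these times, whose adjusted p ran from 0.0161 to 0.0596. The first gene was not called (log2 fold change 1.71, SE 1.05, edgeR adjusted p = 0.296).

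Counts in a library add up to a fixed total, so these shares press down the share of everything else. If no other gene had changed, the pair alone would have lowered each remaining gene at 32 h by 0.60 on the log2 scale, to 65.8% of its 4 h share. The most abundant gene by itself gives a lowering of 0.41. Taking the 10 or the 60 most abundant genes in place of the pair gives a lowering of 0.63 and 0.56. Of the genes ranked 3 to 10 by counts, 1 was called, TRINITY_DN236788_c5_g3, and the other 7 had an edgeR adjusted p between 0.109 and 1.

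With scaling by the trimmed mean of M-values (TMM), which corrects for such dilution, 657 genes changed between 32 h and 4 h, or 4.22% of those tested. Of these, 317 genes (2.03%) rose and 340 (2.18%) fell (edgeR's quasi-likelihood test at a p under 0.05 after Benjamini-Hochberg adjustment over all tested genes). An unadjusted p under 0.05 was reached by 4156 genes. The calls contrast these same 6 libraries, so separation of the 2 times follows in part from how the genes were chosen. The falls were moderate and fully separated: the 3 values at 32 h lay below the 3 values at 4 h in 340 of 340 genes, which holds for 16.3% of all tested genes. The rises separated in 199 of 317 genes, against 10.4% of all tested genes. Of the rises, 166 of the 182 with more than 3 counts over the 4 h libraries separated. Among the 135 with 3 counts or fewer there, 33 did. Over all tested genes the median log2 fold change was -0.03, and -0.11 over the 5572 genes with a mean of at least 10 CPM in these 6 libraries. TMM is built to centre fold changes, so a median near 0 is no independent check of the baseline.

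**Figure D2:**
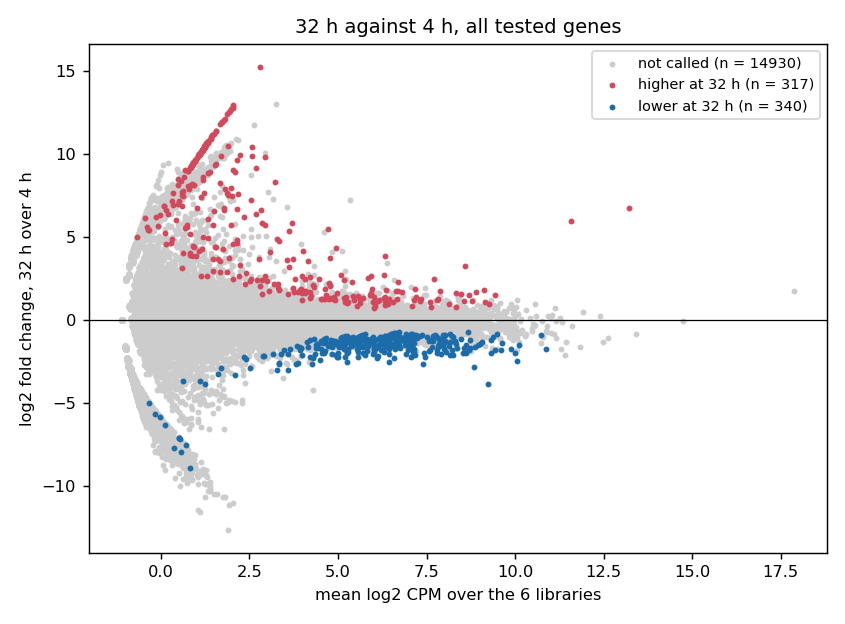
Log2 fold change of 32 h over 4 h for each tested gene against its mean log2 CPM over the 6 libraries; red points are the 317 genes called higher, blue points the 340 called lower and grey points the genes not called. The lower genes form a compact band with a median of -1.46, while the higher genes include a steep arm at low mean level with the genes near 0 at 4 h, whose fitted fold changes depend on the prior count and are no measure of size.

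How many genes rose for each that fell depended on the scaling. With library totals only, which leave the dilution in, 277 rose and 993 fell, rises making up 21.8% of calls against 48.2% with TMM, and the median over all tested genes was -0.43. Removing the 2 most abundant genes and again scaling to totals gave 518 rises and 249 falls, with 67.5% of calls upward and a median of 0. With the 10 and the 60 most abundant genes removed, 70.6% and 63.4% of calls were upward, and with only the most abundant gene removed it was 42.9%. DESeq2's size factors gave 398 rises and 320 falls, 55.4% upward. Removing the pair and applying TMM to the rest gave 280 rises and 581 falls, 32.5% upward, with a median of -0.22. Counting genes called in all of these 7 other scalings left 146 of the 317 rises and 191 of the 340 falls. A gene that a scaling removed counted as not called there, so abundant genes could miss this count by construction.

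The count of calls also depended on single libraries. Leaving out 32h replicate 2, the library that stood apart, gave 356 rises and 233 falls, and leaving out 32h replicates 1 and 3 gave 129 and 233, and 105 and 188. Without 4h replicate 1 there were 143 rises and 223 falls, without 4h replicate 2 there were 37 and 376, and without 4h replicate 3 there were 49 and 129. Leaving out 120h replicate 1, a library of neither time that enters through the shared fit, gave 641 rises and 733 falls. In all 6 fits without a library of these times, 29 rises and 113 falls were called. Of these, 28 rises and 109 falls were also called in each of the 7 other scalings.

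**Figure D3:**
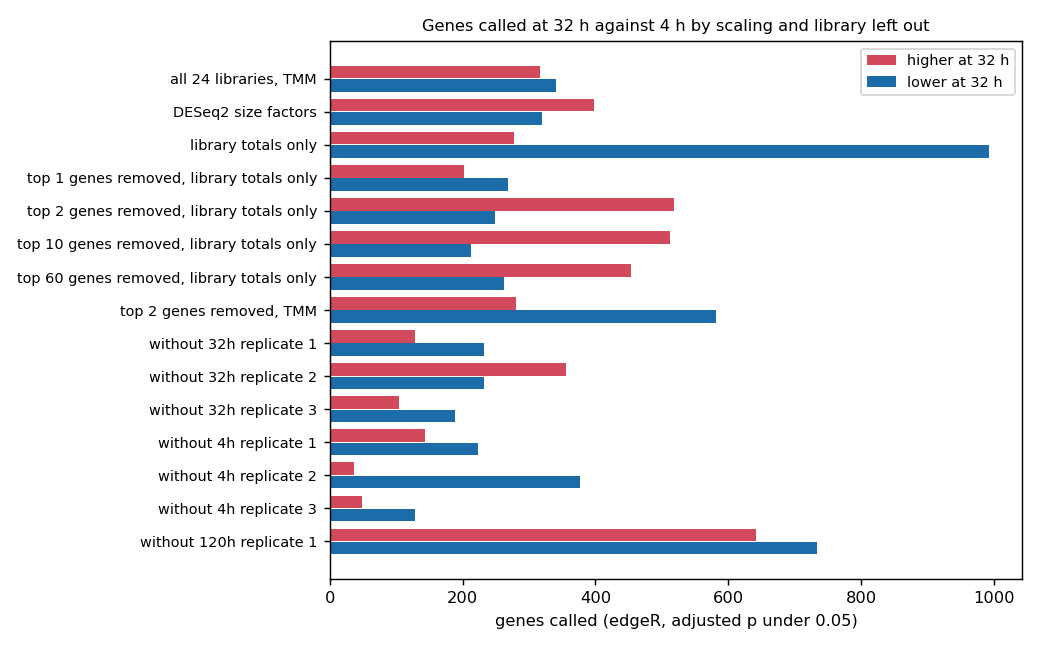
Number of genes called higher (red) and lower (blue) at 32 h than at 4 h by edgeR at an adjusted p under 0.05, for 8 ways of scaling (upper rows) and for fits without one library (lower rows). Falls range from 129 without 4h replicate 3 to 993 with library totals only, and rises from 37 without 4h replicate 2 to 641 without 120h replicate 1.

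The 340 genes that fell were mostly well expressed at 4 h. Their median level was 45.3 CPM at 32 h and 121 CPM at 4 h (TMM-scaled CPM, as in all CPM values of single genes and lists here). Their median log2 fold change was -1.46, with an interquartile range of -1.86 to -1.16. Only 13 had 3 counts or fewer over the 32 h libraries, and the others were still present. With those 13 set at the bound that 3 counts allow, the median was -1.45, and 300 of the 340 genes fell by more than 1 on the log2 scale, 65 by more than 2 and 14 by more than 3. Together they held 2.86%, 2.03% and 2.21% of the counts at 32 h, against 8.64%, 9.04% and 9.50% at 4 h.

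Dilution was measured in these same genes. Their median log2 fold change was -1.86 with library totals only and -1.46 with TMM. With the pair of abundant genes removed it was -1.28 with totals only and -1.65 with TMM. Outside that pair they held 4.37%, 4.02% and 4.19% of the counts at 32 h, against 10.3%, 10.5% and 11.3% at 4 h. The genes were called lower from these same libraries, so the order of the shares was fixed by how they were chosen. Of the 340 genes, 249 were called lower with the pair removed and totals only, where those were all the falls called. With the pair removed and TMM, 339 were called lower, among 581 falls. Without 32h replicate 2, 212 of the 340 were called.

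TRINITY_DN228216_c0_g1 fell most among the 108 falling genes that met the naming rule, which asks for at least 10 CPM in each 4 h library, over 3 counts in each 32 h library, and a call in each fit without one library. It had 186, 186 and 117 CPM at 32 h, against 1471, 2618 and 2941 CPM at 4 h. Its highest 32 h library lay far below its lowest 4 h library. The log2 fold change was -3.84 (SE 0.69, edgeR adjusted p = 0.00379), with an adjusted p of 0.00541 to 0.0288 over the fits without one library. It had 1 isoform in the assembly.

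TRINITY_DN240304_c2_g1, assembled as 7 isoforms, came next. It had 196, 202 and 125 CPM at 32 h, against 1048, 1126 and 1543 CPM at 4 h, again with no overlap. Its log2 fold change was -2.83 (SE 0.53, edgeR adjusted p = 0.00499), and -3.23 with library totals only and -2.65 with the pair removed.

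Falling genes with many counts at 4 h changed by very different amounts. The one with the largest share of the counts at 4 h had 937, 658 and 1626 CPM at 32 h, against 3548, 3383 and 3752 CPM at 4 h, with a log2 fold change of -1.73 (SE 0.39, edgeR adjusted p = 0.0176). That call held in 3 of the 6 fits without one library. The falling gene ranked 5 by that share had 555, 340 and 668 CPM at 32 h, against 2523, 1738 and 1998 CPM at 4 h, a log2 fold change of -2.001 (SE 0.27, edgeR adjusted p = 0.000559) that was called in all 6 of those fits. The one ranked 4 had the smallest change of the first 12, with 1173, 1369 and 1161 CPM at 32 h, against 1984, 2346 and 2681 CPM at 4 h. The log2 fold change was -0.92 (SE 0.24, edgeR adjusted p = 0.0364), held in 3 of the 6 fits, and -0.75 with the pair removed.

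The 317 genes that rose were of 2 kinds. Over the 3 libraries of 4 h, 182 had more than 3 counts and were already present, and 135 had 3 counts or fewer. Among the 182 genes present at 4 h, the median log2 fold change was 2.02, from a median of 57.8 CPM at 32 h and 9.51 CPM at 4 h. They had a count in all 3 libraries of 32 h in 168 cases, the other 14 being at 0 in 32h replicate 2, and their libraries did not overlap in 166 cases. Without 32h replicate 2, 130 of the 182 were called. They held 10.3%, 10.9% and 15.4% of the counts at 32 h, against 1.11%, 0.923% and 0.871% at 4 h. Most of this at 32 h was the second most abundant gene: outside the pair they held 5.39%, 8.85% and 7.71% at 32 h, against 1.19%, 0.950% and 0.919% at 4 h. A large part of that remainder was again 1 gene, TRINITY_DN236788_c5_g3, with 1.25%, 2.86% and 1.79% of all counts at 32 h.

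TRINITY_DN236788_c5_g3 rose most among the 13 rising genes that met the naming rule. It had 12609.9, 38018 and 23769.5 CPM at 32 h, against 331, 446 and 455 CPM at 4 h. Every 32 h library was far above every 4 h library, and the 32 h libraries also differed widely among themselves. The log2 fold change was 5.91 (SE 1.11, edgeR adjusted p = 0.00507), with an adjusted p of 0.0103 to 0.0407 over the fits without one library. It ranked 5 by counts in these libraries, with 1.25%, 2.86% and 1.79% of the counts at 32 h, against 0.0354%, 0.0534% and 0.0491% at 4 h.

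TRINITY_DN237007_c0_g1 was more even. It had 297, 305 and 309 CPM at 32 h, against 27.6, 17.8 and 18.6 CPM at 4 h. The 32 h libraries, replicate 2 included, were nearly alike and lay far above the 4 h libraries. The log2 fold change was 3.83 (SE 0.57, edgeR adjusted p = 0.00103), 3.41 with library totals only and 4.00 with the pair removed.

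Other rising genes that met the naming rule were lower in level or changed less. The one ranked 3 by fold change had 23.4, 15.1 and 26.5 CPM at 32 h, against 1.66, 1.29 and 2.10 CPM at 4 h, a log2 fold change of 3.68 (SE 0.67, edgeR adjusted p = 0.00415). The one ranked 9 had 626, 1185 and 1401 CPM at 32 h, against 304, 292 and 337 CPM at 4 h, with a log2 fold change of 1.78 (SE 0.29, edgeR adjusted p = 0.00193). Both kept their libraries apart. In contrast, the rising gene ranked 8 by share of the counts at 32 h had 815, 818 and 947 CPM at 32 h, against 546, 345 and 432 CPM at 4 h, a log2 fold change of 0.96 (SE 0.26, edgeR adjusted p = 0.0441) that was called in 1 of the 6 fits without one library.

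The 135 rising genes with 3 counts or fewer at 4 h were carried by 2 of the 3 libraries of 32 h. Of these genes, 102 had no count at all at 4 h. At 32 h, 134 had a count in replicate 1, 34 in replicate 2 and 133 in replicate 3. Their median level was 30.1 CPM in 32h replicate 1, 0 in replicate 2 and 40.4 CPM in replicate 3. In 100 genes replicates 1 and 3 were above 0 while replicate 2 was at 0, and the 32 h and 4 h libraries were non-overlapping in only 33. At least 1 CPM in all 3 libraries of 32 h was reached by 30 of the 135. Against a floor of 3 counts over the 4 h libraries, the 102 genes at 0 there rose at least 6.16-fold to at least 5509-fold, with a median of at least 143-fold, taken over all 3 libraries of 32 h.

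The most abundant of these genes had 901, 0 and 2437 CPM at 32 h and 0 in each library of 4 h, at least 5509-fold higher at 32 h (edgeR adjusted p = 0.0484). The one ranked 5 by level had 297, 0 and 320 CPM at 32 h and again 0 in each library of 4 h, at least 1199-fold higher (edgeR adjusted p = 0.0208). In both, 32h replicate 2 was at 0, as the 4 h libraries were. Leaving out 32h replicate 2, 125 of the 135 were called, while leaving out 32h replicates 1 and 3 kept 25 and 24. Only 9 of the 135 were called in each fit without one library of these times. The calls also depended on the filter. In a fit of the 6 libraries with the tested genes kept, 109 of the 135 were called, and 133 of the 182 present at 4 h. With the filter set on those 6 libraries, 12 of the 135 were called, against 151 of the 182. With the replicate number as a block the numbers were 33 and 123. The genes had fewer isoforms than the other risers, with a median of 2, against 4 for the 182 present at 4 h and 2 for all tested genes.

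**Figure D4:**
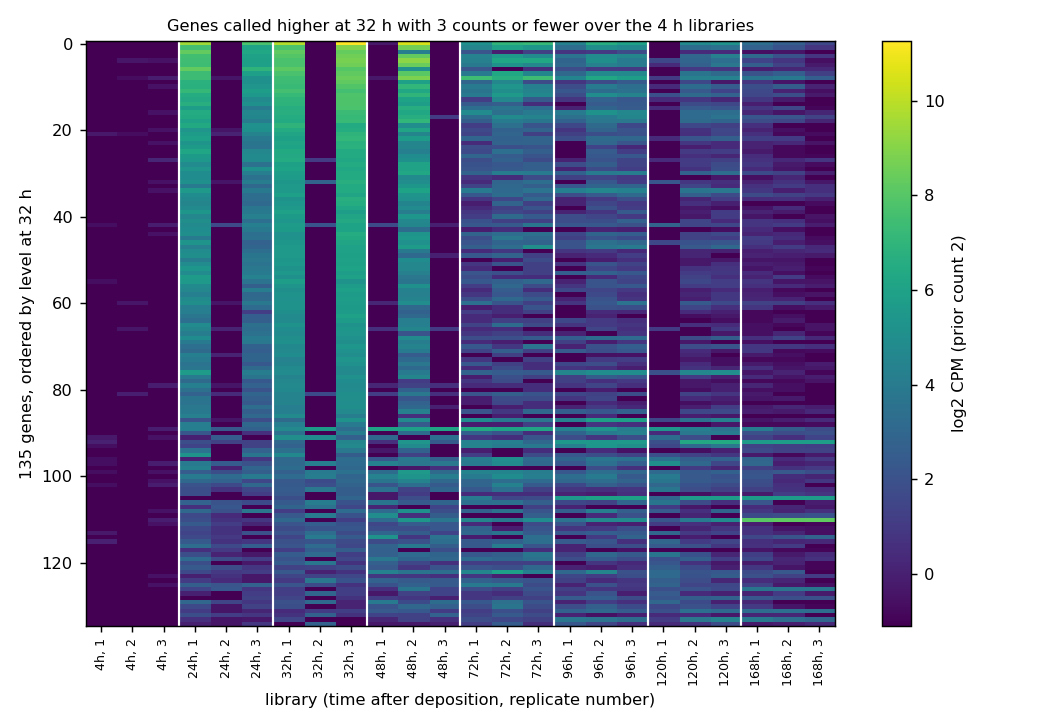
Log2 CPM (prior count 2) of the 135 genes called higher at 32 h that had 3 counts or fewer over the 4 h libraries, 1 gene a row ordered by level at 32 h, with the 24 libraries in columns grouped by time. The upper rows are bright in 32h replicates 1 and 3, 24h replicates 1 and 3 and 48h replicate 2, and dark in the other libraries of 24 h, 32 h and 48 h.

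The heat map of these 135 genes shows that the split was not particular to 32 h. At 24 h, 133, 47 and 128 of them had a count in replicates 1, 2 and 3, with a median of 18.5, 0 and 8.63 CPM. At 48 h the numbers were 49, 132 and 47, with a median of 0, 18.5 and 0 CPM. The most abundant of them followed this pattern, with 711, 0 and 211 CPM at 24 h and 0.355, 1440.5 and 0 CPM at 48 h. From 72 h on most libraries held most of these RNAs at low level: 123 to 126 genes had a count at 72 h and the median lay between 3.13 and 5.28 CPM. An exception was 120h replicate 1, with 54 genes, while replicates 2 and 3 of that time had 128 and 127. At 168 h, 132, 122 and 97 had a count, with a median of 1.02, 0.692 and 0.267 CPM. Which property the libraries with and without these RNAs differ in was not tested.

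A wider count gave the background of appearance and loss. Over all listed genes, 6057 had 3 counts or fewer over the 4 h libraries. Of these, 285 reached at least 1 CPM of the library total in all 3 libraries of 32 h, and 633 did in 32h replicates 1 and 3. In the other direction, 324 genes with at least 1 CPM in all 4 h libraries had 3 counts or fewer over the 32 h libraries. The 4 h libraries were deeper, so the floor of 3 counts is 0.576 to 0.753 CPM in single 4 h libraries and 0.863 to 1.36 CPM in single 32 h libraries.

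The changed genes were then followed at the 6 other times. The contrast that called them was between 32 h and 4 h, but the libraries of the other times shared its fit, filter and scaling, and the share at 4 h is itself a value the genes were chosen on. The 340 falling genes held a lower share than at 4 h in every library of every later time. Outside the pair of abundant genes they held 4.97% to 5.87% of the counts at 24 h, 3.82% to 4.42% at 48 h, 3.98% to 4.31% at 72 h and 4.27% to 4.47% at 96 h. The share was higher again later, with 4.96% to 5.40% at 120 h and 5.97% to 6.11% at 168 h, still below the 10.3% to 11.3% of 4 h. Genes called without 32h replicate 2, 233 in number, had the same course, with 7.62% to 8.35% at 4 h, 2.88% to 3.10% at 32 h and 4.38% to 4.54% at 168 h.

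**Figure D5:**
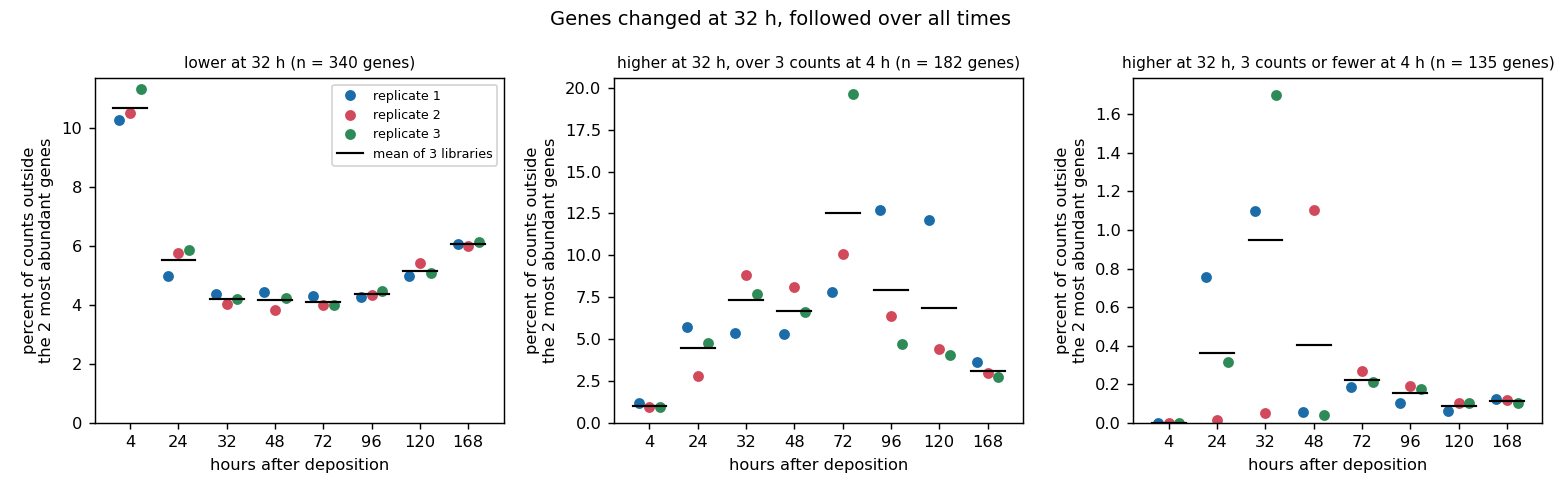
Percent of the counts outside the 2 most abundant genes held by the 340 genes lower at 32 h (left), the 182 genes higher at 32 h with over 3 counts at 4 h (middle) and the 135 genes higher at 32 h with 3 counts or fewer at 4 h (right), against hours after deposition; points are libraries and bars the mean of 3 libraries. The lower genes hold 3.82% to 4.47% from 32 h to 96 h and 5.97% to 6.11% at 168 h. The summed share of the middle group has its highest mean at 72 h, where replicate 3 reaches 19.6%, while the median gene of that group has no such peak.

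The median falling gene was followed in TMM-scaled CPM, a different scale from the summed share of unscaled counts. In CPM, its level in single libraries lay between 54.0 and 63.1 at 24 h, between 38.8 and 47.6 at 32 h, between 37.2 and 43.3 at 72 h, and between 40.3 and 47.5 at 168 h. On this TMM scale the 168 h and 32 h libraries overlapped, while their summed shares did not. The TMM factors were 1.48 to 1.69 at 168 h and 0.754 to 0.997 at 32 h. With scales this different, the comparison is no contrast of median and sum. Among the 6 other times, the highest mean came at 24 h for 156 of the 340 genes (45.9%) and at 168 h for 98 (28.8%). Of all tested genes, 14.1% were highest at 24 h and 30.5% at 168 h.

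Contrasts between times other than 4 h and 32 h gave tests of this course. At 48 h against 24 h, which flank 32 h, edgeR called 1 gene of all tested, 0.00642%, and this 1 gene was among the 340 and was lower at 48 h. No rising gene was called (0 of 317), and the number at an unadjusted p under 0.05 was 32 higher and 4 lower. One library turned that split: without 48h replicate 2 it was 25 higher and 106 lower, with 89 of the 106 among the 135 genes near 0 at 4 h. The 32 became 19 without 24h replicate 3, 16 with library totals only and 52 with the pair removed, and DESeq2 gave 49. The 4 became 8 without 24h replicate 2, 7 with library totals only, 1 without 48h replicate 3, and 0 without 24h replicate 1 or 48h replicate 1. DESeq2 called 11 of the 317 higher and 27 of the 340 lower at 48 h, and edgeR called 8 of the 340 lower without 120h replicate 1 and 12 with library totals only. At an unadjusted p under 0.05, 80 of the 340 falling genes (23.5%) were lower and 4 were higher at 48 h than at 24 h, where 2.17% of all tested genes were lower. These percentages are not matched for level: the median at 4 h was 121 CPM for the 340 and 3.67 CPM for all tested genes. The 80 became 41 without 24h replicate 2, 46 without 48h replicate 2 and 147 with library totals only, while the 338 lower genes of all tested became 203, 450 and 963 in those fits. Of the rising genes 10.1% were higher at that level, as were 10.1% of all tested genes.

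At 96 h against 48 h, 52 of the 340 falling genes (15.3%) rose and 67 (19.7%) fell, against 13.5% and 10.8% of all tested genes. This split turned with the scaling: DESeq2's size factors gave 71 rises and 31 falls, library totals only 59 and 30, and totals with the pair removed 63 and 40. It also turned without single libraries, with 37 rises and 28 falls without 48h replicate 1, 34 and 30 without 48h replicate 3, and 47 and 38, 47 and 21, and 38 and 10 without 96h replicates 1, 2 and 3. At 168 h against 96 h, 54 (15.9%) rose and 20 (5.88%) fell, against 9.12% and 4.73% of all tested genes. With library totals only the split was 95 rises and 4 falls, with the pair removed 64 and 9, and DESeq2 called 61 rises and 55 falls. The rises numbered 36 to 66 over the fits without one library. The falls were 3 without 168h replicate 2, 168h replicate 3 or 96h replicate 2, 4 without 96h replicate 3, 7 without 168h replicate 1 and 44 without 120h replicate 1.

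Single falling genes differed in their later course. TRINITY_DN228216_c0_g1 had 53.5, 19.3 and 20.4 CPM at 168 h, against 92.6, 116 and 82.9 CPM at 96 h, and this difference was not called (log2 fold change -1.65, edgeR adjusted p = 0.0868). In 120h replicate 1 it had 394 CPM, while replicates 2 and 3 of that time had 74.0 and 40.0 CPM. TRINITY_DN240304_c2_g1 was lower at 96 h than at 48 h by a log2 fold change of -1.71 (edgeR adjusted p = 0.0199).

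Others, given by rank among those that met the naming rule, returned to a 4 h level in TMM-scaled CPM. The TMM factors were 1.07 to 1.21 at 4 h and 1.48 to 1.69 at 168 h. A return on this scale is therefore not a return to the same share of unscaled counts. The gene ranked 5 by fold change had 5.50, 3.35 and 9.04 CPM at 32 h, against 41.4, 29.2 and 36.1 CPM at 4 h. It had 28.8, 34.98 and 32.8 CPM at 96 h, against 8.16, 8.23 and 5.94 CPM at 48 h, a log2 fold change of 2.10 (edgeR adjusted p = 0.00211). At 168 h it had 36.5, 34.8 and 38.8 CPM, inside its range at 4 h on this scale. The gene ranked 10 returned later. It had 35.9, 20.7 and 37.99 CPM at 32 h, against 205, 129 and 137 CPM at 4 h, with no overlap. At 168 h it had 181, 163 and 175 CPM, against 30.7, 36.3 and 35.6 CPM at 96 h, a log2 fold change of 2.33 (edgeR adjusted p = 0.000609).

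The 182 rising genes present at 4 h had their highest mean summed share at 72 h and, of the later times, their lowest at 168 h. A summed share is weighted towards the genes with the most counts. Outside the pair they held 2.81% to 5.71% of the counts at 24 h, 5.30% to 8.13% at 48 h, 7.79% to 19.6% at 72 h, 4.73% to 12.7% at 96 h, 4.05% to 12.1% at 120 h and 2.76% to 3.63% at 168 h. The highest values at 72 h, 96 h and 120 h belonged each to 1 library, 72h replicate 3, 96h replicate 1 and 120h replicate 1. TRINITY_DN236788_c5_g3 was high in the same libraries, at 96960.0 CPM in 72h replicate 3, 50898 CPM in 96h replicate 1 and 46172 CPM in 120h replicate 1. At 168 h it had 3587, 1039.7 and 1510.1 CPM. The typical member changed less and did not share the peak at 72 h. The median lay between 36.9 and 64.2 CPM at 48 h, and between 27.6 and 36.7 CPM at 168 h. At 72 h it lay between 39.3 and 44.8 CPM, inside the range of 48 h.

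The level at 168 h was tested against 96 h. Of the 182 genes, 11 (6.04%) rose and 30 (16.5%) fell, against 9.12% and 4.73% of all tested genes. With library totals only this split turned, to 16 rises and 11 falls, and with the pair removed it was 12 and 16, while DESeq2 gave 12 and 52. It was also 9 and 4 without 168h replicate 2, 9 and 5 without 168h replicate 3, and 8 and 7 without 96h replicate 2. The falls numbered 14 without 96h replicate 1 and 11 without 96h replicate 3. At 96 h against 48 h, 18 rose and 30 fell, while DESeq2's size factors gave 27 rises and 23 falls, DESeq2's test 36 and 29, and library totals only 19 and 17. The split was 8 and 18 without 48h replicate 1, 9 and 20 without 48h replicate 3, and 15 and 19, 14 and 19, and 12 and 11 without 96h replicates 1, 2 and 3. Among the 6 other times, 90 of the 182 genes (49.5%) had their lowest mean at 168 h, against 24.8% of all tested genes. The highest mean came at 48 h in 51 of them (28.0%), against 17.7% of all tested genes.

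Both named rising genes were lower at 168 h than at 96 h. For TRINITY_DN236788_c5_g3 the log2 fold change was -3.48 (edgeR adjusted p = 0.0258). The libraries of 24 h averaged 381 ± 111 CPM of TRINITY_DN237007_c0_g1, those of 48 h 515 ± 191, those of 72 h 651 ± 209, those of 96 h 218 ± 109.9, those of 120 h 222 ± 126 and those of 168 h 61.8 ± 55.9 CPM (SD, n = 3 each). Between 168 h and 96 h its log2 fold change was -1.82 (edgeR adjusted p = 0.0275).

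Others differed in direction. The gene ranked 8 by fold change among those that met the naming rule had 18.2, 14.5 and 22.9 CPM at 32 h, against 4.97, 4.50 and 5.59 CPM at 4 h. It reached 116, 74.2 and 82.9 CPM at 168 h, above 8.14, 23.7 and 11.0 CPM at 96 h, a log2 fold change of 2.65 (edgeR adjusted p = 0.000173). The gene ranked 10 went the other way, with 42.3, 24.0 and 26.5 CPM at 32 h, against 8.84, 8.68 and 10.01 CPM at 4 h. At 168 h it had 8.25, 7.61 and 5.34 CPM, lower than at 96 h by a log2 fold change of -2.23 (edgeR adjusted p = 0.000285).

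The 135 genes that were near 0 at 4 h were most often highest at 24 h among the 6 other times. The highest mean was at 24 h in 63 of them (46.7%), against 14.1% of all tested genes, and at 168 h in 4. The lowest mean was at 168 h in 93 (68.9%), against 24.8% of all tested genes. At 24 h and 48 h their counts lay almost entirely in 24h replicates 1 and 3 and in 48h replicate 2. A mean over 3 libraries thus depends on how many of them held these RNAs. The median was 18.5 CPM in 48h replicate 2, against 18.5 and 8.63 CPM in 24h replicates 1 and 3. At 168 h against 96 h, 2 rose and 4 fell, and at 96 h against 48 h, 2 rose and 0 fell, where 2 were higher and 4 lower at an unadjusted p under 0.05. DESeq2 called 3 higher and 1 lower at 96 h against 48 h, and 2 higher and 12 lower at 168 h against 96 h. Without 48h replicate 2, edgeR called 10 higher and 1 lower there. The 4 falls at 168 h against 96 h were 0 without 168h replicate 2, 168h replicate 3, 96h replicate 2 or 96h replicate 3, 1 without 96h replicate 1, 8 without 120h replicate 1, and 2 with library totals only or with the pair removed.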

How the data were processed

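RNA of whole cocoons was prepared as stranded polyA libraries, per the labels' protocols. Tools named in the submitters' processing notes are Trimmomatic 0.32, FastQC 0.11.2, RSEM, R 4.2.2, edgeR 3.40.2 and limma 3.54.2. IDs follow Trinity's pattern, per the file headers. An aligner or genome build is not given in the sources used here. Estimated counts per transcript were deposited (RSEM expected counts, not normalised, per the file headers). A second table by the authors holds a TMM-normalised signal per transcript, whose underlying unit is not stated, and it was used in 1 alternative as log2(value + 1).

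Expected counts were summed per assembler gene and rounded to whole numbers. All 24 libraries entered one edgeR 4.0.16 fit in R 4.3.3 (filterByExpr by time, TMM, glmQLFit, glmQLFTest), with Benjamini-Hochberg adjustment over 15587 genes and a threshold of 0.05. Fits without one library kept these genes. Standard errors were back-calculated from the F statistic. CPM values of genes and lists are TMM-scaled, shares are percent of unscaled counts, and the search for genes missing from a library used unscaled CPM. Counting error limits low values, and at 3 counts a gene was taken as near 0. Alternatives used DESeq2 1.42.0 and limma 3.58.1. The 3 libraries of a time are called biological replicates in the labels. Chi-square per degree of freedom between replicates was 11.2 to 32.0 at 4 h and 32 h, so none was a repeated deposit. The fit was tested on simulated counts with known changes between 32 h and 4 h. Where a 4-fold difference was put into 100 genes, 24% of these genes were called. A 16-fold difference put into 100 genes led to calls for 43%. Calls for genes without a difference numbered 2. Most simulated differences were thus missed, so the number of called genes is no full count of changes.

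The comparison and gene lists were chosen with earlier results of these data known. Named IDs are the 2 largest rises and the 2 largest falls by log2 fold change, among genes called in the fit and in the 6 fits without one library of these times, with non-overlapping libraries, a minimum of 10 CPM throughout the higher time and over 3 counts throughout the lower one. Other genes are given by rank in that order or in counts, and the genes near 0 at 4 h were ranked after their values were seen.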

Additional observations from a re-analysis of the deposited data

How the results depend on the processing

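The number of genes called at 32 h against 4 h, 657, moved most with the test. It was 2108 with DESeq2, 1049 with limma-voom, 26 when tested against a log2 fold change of 1 (glmTreat), 157 at an adjusted p under 0.01, 139 for transcripts, 363 with a filter of 1 CPM in 3 libraries, 1270 with library totals only and 1286 with the 6 libraries alone. With a filter set on those 6, an alternative chosen after seeing the data, it was 1030. Over the fits without one library it ran from 178 to 1374. At 48 h against 24 h, where 1 gene was called, DESeq2 gave 285, library totals only (also chosen after seeing the data) gave 33, and leaving out one library gave 1 to 14. Leaving out one library gave 1967 to 4680 genes at 96 h against 48 h, in place of 3779, and 830 to 3165 at 168 h against 96 h, in place of 2158. The replicate numbers do not pair the libraries: deviations of same-numbered 32 h and 4 h libraries correlated at -0.05, 0.04 and -0.02, and only 32h replicate 2 correlated best with its own number. With the replicate number as a block, 433 genes were called. The share of counts at 32 h in falling genes, 2.37%, was 4.20% outside the 2 most abundant genes and 0.915% for the genes called in all 6 fits without one library, and that in rising genes, 12.7%, was 8.27% and 2.19%. The cause of these movements was not tested beyond what each setting changes by construction. The 28.7 percentage points gained by the 2 most abundant genes ranged from 25.8 to 33.3 without one library. The 4 named genes kept their direction in every alternative they were fitted in, and TRINITY_DN240304_c2_g1 missed the threshold with glmTreat (log2 fold change -2.83). Lists called without 32h replicate 2, without 4h replicate 2 and without 120h replicate 1 were also chosen after seeing the data. With 3 libraries a time, depths of 2202637 to 5204768 counts and no gene names, differences in genes at a few CPM could often not be detected. In simulated counts the fit missed most 4-fold and most 16-fold differences.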

Other observations

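The 218 genes at 0 in 32h replicate 2 and at 10 CPM or more in both other 32 h libraries were looked at in all 24 libraries; they were chosen on the 32 h values. They held 1.34%, 0% and 1.64% of the counts at 32 h, against 0.0889%, 0.0984% and 0.0863% at 4 h. Of the 218, 86 belonged to the 135 rising genes near 0 at 4 h and 14 to the other rising genes. At 4 h, 93, 94 and 99 of the 218 had a count. At 24 h, 218, 92 and 218 had one, with a share of 1.04%, 0.0813% and 0.478%. At 48 h these numbers were 86, 217 and 84, with a share of 0.0614%, 1.35% and 0.0629%. In 120h replicate 1, 99 had a count and the share was 0.0909%, while replicates 2 and 3 of that time had 207 and 209 genes and 1.18% and 1.39%. All 3 libraries of 72 h, 96 h and 168 h had a count for at least 164 of them. The count was therefore either close to all or under 100 of the 218 in the libraries of 24 h and 48 h. At 32 h the split was fixed by how the genes were chosen. No label gives a property by which these libraries differ.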
